A study of Mus musculus with 12 samples.

Results

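The phagocyte NADPH oxidase and the enzymes that handle its products were described in mouse macrophages and osteoclasts. The set held 8 genes, chosen by symbol from the 54532 Ensembl genes of the expression table: the oxidase subunits Cybb, Cyba, Ncf1 and Ncf4, the superoxide dismutases Sod1 and Sod2, catalase (Cat) and glutathione peroxidase 1 (Gpx1). All 8 passed the minimum of 1 FPKM in at least 3 of the 12 libraries, as did 11335 genes in all. FPKM is fragments per kilobase of gene, scaled for each library by the authors.

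Every sample came from marrow of wild-type (WT) mice, grown with CMG, a source of the macrophage growth factor M-CSF. Macrophages (MA_NT) were such cells without RANKL, the cytokine that drives osteoclast formation. Osteoclasts (OC_NT), the cells that resorb bone, were obtained from them with RANKL, which the source label gives as 100 ng/mL and the protocol as a range. MA_LPS and OC_LPS were the same cell types after 3 h of lipopolysaccharide (LPS, from the outer membrane of Gram-negative bacteria) at 100 ng/mL on day 5. Each of the 4 groups had 3 libraries. Nothing in the labels says that the 3 came from separate animals or cultures, so p-values then measure only the spread between these samples, which may be technical.

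The oxidase moves electrons from cytosolic NADPH across a membrane to oxygen and so makes superoxide. Its catalytic core is gp91phox, encoded by Cybb, held in the membrane by p22phox, encoded by Cyba. On activation, cytosolic subunits including p47phox (Ncf1) and p40phox (Ncf4) join the core together with a Rac GTPase. Superoxide dismutases turn superoxide into hydrogen peroxide, Sod1 mainly in the cytosol and Sod2 in the mitochondrial matrix. Catalase in peroxisomes and the selenium enzyme Gpx1 then remove the peroxide. In macrophages this system serves the killing of ingested microbes, and in osteoclasts reactive oxygen has been linked to RANKL signalling.

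The promoters of Cybb, Ncf1 and Sod2 are shown because these were the members with the largest LPS differences in macrophages. Each is the 250 bases before the RefSeq start site on build GRCm38.p6, written 5′ to 3′ on the gene's strand. Capitals mark GAAANNGAAA, a pattern bound by interferon regulatory factors, in Cybb and Ncf1, and GGGCGG, a pattern bound by SP1, in Sod2, each found on either strand.
Cybb, chrX:9469325-9469574, minus strand: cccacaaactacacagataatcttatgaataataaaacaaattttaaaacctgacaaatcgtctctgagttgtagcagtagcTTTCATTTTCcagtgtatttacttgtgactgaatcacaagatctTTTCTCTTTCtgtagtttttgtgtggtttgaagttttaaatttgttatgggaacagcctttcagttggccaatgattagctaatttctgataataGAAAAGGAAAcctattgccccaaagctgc
Ncf1, chr5:134229626-134229875, minus strand: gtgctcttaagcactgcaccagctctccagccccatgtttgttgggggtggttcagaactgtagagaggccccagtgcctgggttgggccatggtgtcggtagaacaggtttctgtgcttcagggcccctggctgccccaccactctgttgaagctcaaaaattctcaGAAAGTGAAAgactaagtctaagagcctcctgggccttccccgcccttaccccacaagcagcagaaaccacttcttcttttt
Sod2, chr17:13007589-13007838, plus strand: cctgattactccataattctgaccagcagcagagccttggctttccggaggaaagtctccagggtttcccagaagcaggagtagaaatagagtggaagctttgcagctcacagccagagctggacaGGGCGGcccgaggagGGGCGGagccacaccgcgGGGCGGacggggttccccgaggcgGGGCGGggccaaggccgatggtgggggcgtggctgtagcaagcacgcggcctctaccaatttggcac
The windows of Cybb and Sod2 lie inside the GENCODE gene intervals, which start farther upstream than RefSeq.

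Entries were found for 7 of the 8 members, and 6 patterns were searched on both strands. GAAANNGAAA occurred in 2.98% of the 32851 promoters of the table. The Cybb window held 3 matches, which began 168, 124 and 29 bases before the start site, the first pair on the antisense strand. The Ncf1 window held 1 match, 82 bases before the start site, and the windows of Cyba, Sod1, Sod2, Cat and Gpx1 held 0. GGGCGG, present in 32.7% of promoters, had 4 matches in Sod2, 4 in Sod1, 2 in Cyba, 1 in Ncf1 and 1 in Cat. TGANTCA, bound by AP-1 and present in 6.75% of promoters, had 1 match, in Cybb. GAGGAA, a core of PU.1 sites present in 23.3%, had 1 match in Sod2 and 1 in Cat. TGACNNNGC, the antioxidant response pattern present in 10.2%, had 1 match, in Sod1. GGGNNTTTCC, a pattern of NF-kB sites present in 1.41%, had 0 matches in these 7 windows. None of the capitalised matches overlapped a match of another pattern. These matches describe letters in a short window.

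Recovered reads per library ranged from 14875560 to 19278653, and between 9728 and 10301 genes reached 1 FPKM. The cell type labels were checked on marker genes. All 10 osteoclast markers were higher in osteoclasts, with a summed level of 29220 to 32220 FPKM against 16.3 to 29.0 FPKM in macrophages. Of 10 macrophage markers, 9 were lower in osteoclasts and Cd68 was higher, and 8 of the 10 were still at 1 FPKM or more there. The summed macrophage markers were 2730 to 3569 FPKM in osteoclasts and 13455 to 15800 FPKM in macrophages. Markers of neutrophils, which also express the oxidase, summed to 7.30 to 10.1 FPKM in untreated and 9.31 to 17.7 FPKM in LPS-treated macrophages, and to 1.23 to 2.07 and 1.33 to 3.01 FPKM in osteoclasts. Of 10 such markers 4 were tested, and 2 rose with LPS in macrophages, as Cybb and Ncf1 did: S100a9 by 0.83 (adjusted p 0.0129 in limma) and Ngp by 0.69 (0.00863) on the log2 scale. In both, the macrophage groups overlapped: MA_LPS replicate 1 was at 3.15 and 1.35 FPKM, against up to 4.13 and 1.4 FPKM untreated. Those of Cybb and Ncf1 did not overlap. Neither S100a9 nor Ngp was called after rescaling to TPM (adjusted p 0.299 and 0.25), and both were with quantile-normalized values (0.00965 and 0.00302), as was S100a8 (0.54, adjusted p 0.0348). With LPS in osteoclasts their differences were 0.10 and 0.02 (adjusted p 0.83 and 0.971), and all 4 were lower in osteoclasts than in macrophages, without and with LPS. Stromal markers summed to 26.3 to 37.0 FPKM in macrophages and at most 0.724 FPKM in osteoclasts. The part of these cells in the results was not tested. All 4 LPS response genes checked rose in both cell types.

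Cybb separated the groups most widely among the membrane subunits. Cybb (ENSMUSG00000015340, GRCm38 chromosome X, 9435252 to 9487771, minus strand) was at 95.4, 99.2 and 100.2 FPKM in untreated macrophages and at 546, 503 and 533 FPKM after LPS. In osteoclasts it was at 18.3, 14.2 and 15.1 FPKM without LPS and at 50.9, 28.7 and 50.2 FPKM with it. The 4 groups did not overlap, and LPS-treated osteoclasts stayed under untreated macrophages. LPS raised Cybb 5.37-fold in macrophages, from 98.3 ± 2.54 to 527 ± 22.3 FPKM (SD, n = 3), or 2.41 on the log2 scale (SE 0.17, adjusted p 9.60e-08 in limma). This difference was 1.77 on the TPM scale and 1.53 with quantile-normalized values, still called under both. In osteoclasts it rose 2.73-fold, from 15.9 ± 2.16 to 43.2 ± 12.6 FPKM (SD, n = 3), or 1.35 on the log2 scale (SE 0.17, adjusted p 1.68e-04). Cybb was 6.20-fold lower in osteoclasts without LPS and 12.2-fold lower with it, log2 differences of -2.57 and -3.62 (adjusted p 3.54e-08 and 9.54e-10 in limma). The LPS difference of Cybb was smaller in osteoclasts by 1.06 on the log2 scale (interaction -1.06, SE 0.24, adjusted p 0.00292). That call was lost on the TPM scale (-0.45, adjusted p 0.0972) and with quantile-normalized values (-0.27, adjusted p 0.366).

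Cyba, the partner of Cybb, showed a different order. Cyba (ENSMUSG00000006519, chromosome 8, 122424776 to 122432930, minus strand) was at 284, 290.4 and 282 FPKM in untreated macrophages and 365, 391 and 384 FPKM after LPS. It was at 421, 452 and 423 FPKM in untreated osteoclasts and 460.1, 465 and 434 FPKM after LPS. Both osteoclast groups lay above both macrophage groups, and they overlapped each other. Cyba was higher in osteoclasts by 0.60 without LPS and 0.25 with it on the log2 scale (SE 0.04 for each, adjusted p 7.12e-08 and 1.47e-04 in limma), and by 0.18 and 0.41 on the TPM scale and 0.27 and 0.64 with quantile-normalized values. With LPS in macrophages the log2 difference was 0.41 (SE 0.04, adjusted p 3.42e-06) on the deposited scale, and -0.24 after rescaling to TPM. In osteoclasts it was 0.07 (SE 0.04, adjusted p 0.317). Between the cell types, the core's catalytic subunit and its membrane partner differed in opposite directions.

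**Figure D1:**
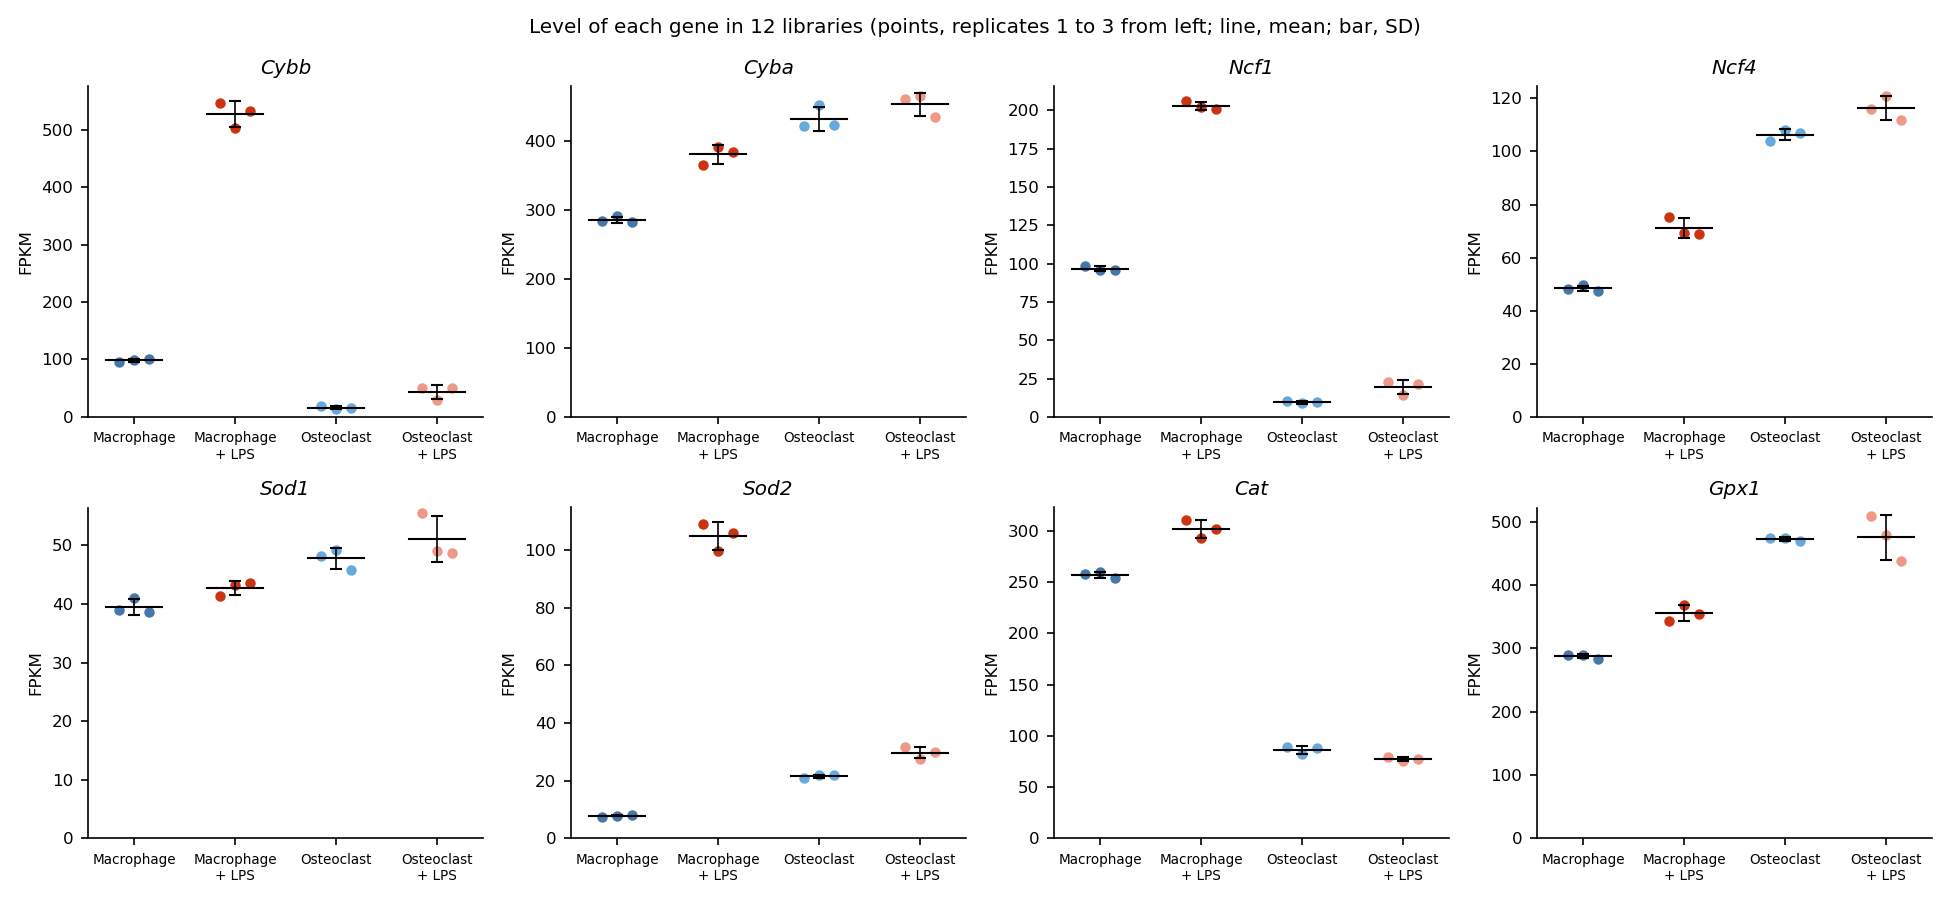
Level of each of the 8 genes in FPKM (vertical axis, linear from 0) in the 4 groups of 3 libraries (horizontal axis), with points for libraries, lines for means and bars for SD. Cybb and Ncf1 sit lowest in the osteoclast groups, Cyba, Ncf4 and Gpx1 sit highest there, and Sod2 is highest in LPS-treated macrophages at 105 FPKM.

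Of the cytosolic subunits, Ncf1, which encodes the organizer p47phox, followed the order of Cybb. Ncf1 (ENSMUSG00000015950, chromosome 5, 134220053 to 134229625, minus strand) was at 98.6, 96.0 and 95.6 FPKM in untreated macrophages and 206, 202 and 201 FPKM after LPS. The osteoclast libraries were at 10.5, 8.71 and 9.40 FPKM without LPS and 23.0, 14.2 and 21.6 FPKM with it. The 4 groups did not overlap. Ncf1 was 10.1-fold lower in osteoclasts without LPS and 10.4-fold lower with it, log2 differences of -3.22 and -3.34 (SE 0.13 for each, adjusted p 3.43e-10 and 1.75e-10 in limma). LPS raised it 2.10-fold in macrophages (log2 difference 1.06, SE 0.13, adjusted p 1.60e-05) and 2.06-fold in osteoclasts (0.94, SE 0.13, adjusted p 3.64e-04). In macrophages this became 0.42 on the TPM scale (adjusted p 0.00857) and 0.20 with quantile-normalized values (adjusted p 0.186). The interaction was -0.12 (SE 0.19, adjusted p 0.615) as deposited, 0.50 after rescaling to TPM (adjusted p 0.0251) and 0.69 with quantile-normalized values (adjusted p 0.00612). Ncf1 shares 408 exon bases with Gtf2ird2 on the opposite strand, and the strand setting of the counting is not given in the sources used here. Gtf2ird2 was at 1.20 to 2.17 FPKM on average in the 4 groups.

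Ncf4, which encodes the phosphoinositide-binding subunit p40phox, was ordered as Cyba was. Ncf4 (ENSMUSG00000071715, chromosome 15, 78244801 to 78262580, plus strand) was at 48.2, 49.5 and 47.6 FPKM in untreated macrophages and 75.4, 69.4 and 68.8 FPKM after LPS. Its levels in osteoclasts were 104, 108 and 107 FPKM without LPS and 116, 121 and 112 FPKM with it. The 4 groups did not overlap. Ncf4 was 2.20-fold higher in osteoclasts without LPS and 1.63-fold with it, log2 differences of 1.12 and 0.70 (SE 0.04 for each, adjusted p 1.74e-10 and 1.05e-08 in limma), and of 0.72 and 0.86 on the TPM scale. The LPS difference in macrophages was 0.55 (SE 0.04, adjusted p 2.19e-07) as deposited and -0.09 (adjusted p 0.087) after rescaling to TPM. In osteoclasts it was 0.12 (SE 0.04, adjusted p 0.0691), and it was called without MA_LPS replicate 1 or without OC_LPS replicate 3 (adjusted p 0.0392 and 0.0489).

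These libraries are bulk samples, in which fewer cells of a type and less RNA per cell cannot be told apart. Among the osteoclast libraries, Cybb and Ncf1 varied together with the macrophage surface gene Adgre1 (F4/80), a marker picked for this description after its values were seen. Adgre1 was at 428 ± 3.49 FPKM in untreated macrophages and 33.1 ± 3.33 FPKM in untreated osteoclasts (SD, n = 3), and at 73.1, 42.5 and 70.9 FPKM in LPS-treated osteoclasts. It was called higher with LPS in osteoclasts (0.85 on the log2 scale, adjusted p 0.00258 in limma), as Cybb and Ncf1 were. OC_LPS replicate 2 was the lowest of its group for Cybb, Ncf1, Adgre1 and the lysozyme gene Lyz2, which was at 1843, 927 and 1590 FPKM in that group. It was the highest for the macrophage markers Csf1r, at 286, 304 and 289 FPKM, and Cd68, at 1351, 1446 and 1325 FPKM, so the markers did not all move together. Without that library, the LPS difference in osteoclasts was 1.62 for Cybb and 1.15 for Ncf1 on the log2 scale, and both stayed called. Mrc1, another macrophage gene, was at 293 ± 2.68 FPKM in untreated macrophages and 2.57 ± 0.209 FPKM in untreated osteoclasts (SD, n = 3). In LPS-treated osteoclasts Mrc1 was at 3.35, 1.62 and 3.41 FPKM, also lowest in replicate 2. The part of remaining macrophage RNA in the osteoclast levels was not tested.

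Ratios to Adgre1 within each library are given as a description, since Adgre1 was chosen because it varied with both genes. The ratio of Cybb to Adgre1 in FPKM was 0.222, 0.230 and 0.236 in untreated macrophages and 0.812, 0.756 and 0.794 after LPS. It was 0.494, 0.456 and 0.481 in untreated osteoclasts and 0.696, 0.674 and 0.708 after LPS. By this ratio untreated osteoclasts lay above untreated macrophages, the reverse of the order in FPKM. The ratio of Cybb to Lyz2 was also higher in untreated osteoclasts, at -6.38 ± 0.13 against -6.85 ± 0.04 on the log2 scale (SD, n = 3). With LPS both ratios of Cybb were lower in osteoclasts, at -0.53 ± 0.04 against -0.35 ± 0.05 to Adgre1 and -5.06 ± 0.10 against -4.62 ± 0.05 to Lyz2 on the log2 scale (SD, n = 3). The ratio of Ncf1 to Adgre1 was 0.223 to 0.229 in untreated macrophages and 0.299 to 0.306 after LPS. It was 0.279 to 0.300 in untreated osteoclasts and 0.304 to 0.334 after LPS. The ratio of Ncf1 to Lyz2 had the opposite order of untreated cell types, at -7.11 ± 0.12 in osteoclasts and -6.87 ± 0.02 in macrophages on the log2 scale (SD, n = 3), so the order for Ncf1 depended on the marker. With LPS the ratio of Ncf1 to Lyz2 was -6.18 ± 0.15 in osteoclasts and -6.00 ± 0.01 in macrophages (log2, SD, n = 3). Adgre1 itself was higher with LPS in both cell types on the deposited scale, at 670 ± 3.85 FPKM in macrophages (SD, n = 3), so the ratio is no fixed measure of cell number.

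**Figure D2:**
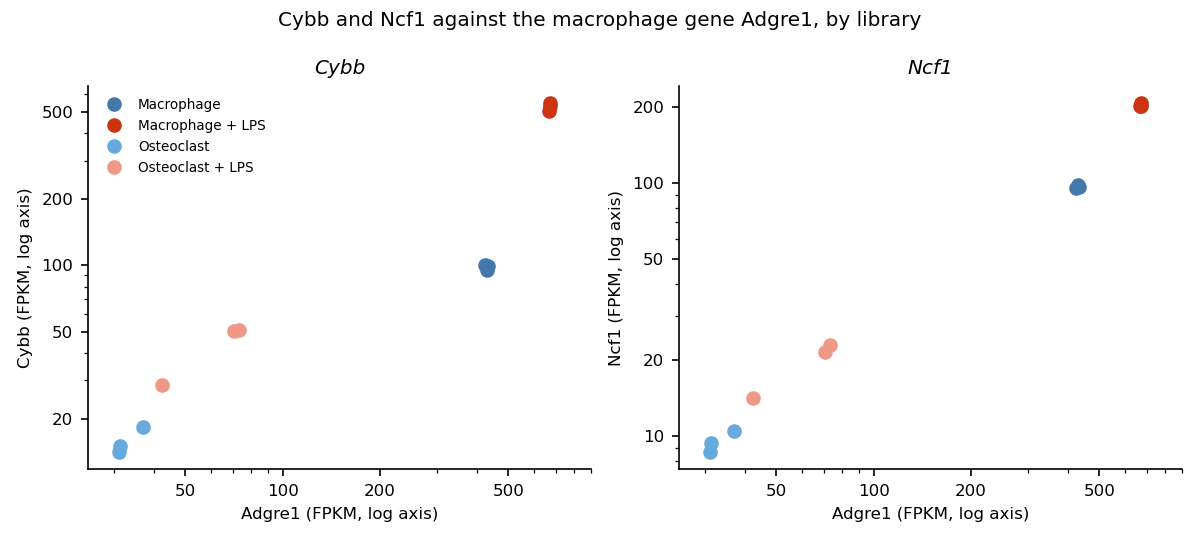
Cybb (left) and Ncf1 (right) against the macrophage gene Adgre1 in each of the 12 libraries, in FPKM on log axes, coloured by group. Among the 6 osteoclast libraries the points run along a line, with OC_LPS replicate 2 at 42.5 FPKM of Adgre1 nearest to the untreated ones. Cybb, Ncf1 and Adgre1 were each called higher with LPS in osteoclasts, so the line includes the difference between the untreated and LPS-treated libraries.

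The other oxidase genes were followed in a list of 14 partner genes, of which 5 were tested. Without LPS, 2 were higher and 2 lower in osteoclasts (1 and 3 after rescaling to TPM), against 38.8% higher and 39.0% lower of all genes tested (24.3% and 57.0% under TPM). Rac2, the Rac GTPase of blood cells, had the highest difference of the list, at 62.5 FPKM in untreated macrophages and 347 FPKM in untreated osteoclasts, or 2.46 on the log2 scale (SE 0.06, adjusted p 1.83e-12 in limma). Rac1, its widely expressed relative, was lower at 91.5 against 65.7 FPKM (-0.47). Rap1a, a small GTPase copurified with the oxidase core, was higher by 0.39 as deposited, and at -0.02 (adjusted p 0.75) under TPM. Hvcn1, the proton channel that balances the charge moved by the oxidase, was lower at 4.91 against 1.06 FPKM (-1.52, and -2.30 under TPM).

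With LPS, 3 of the 5 partner genes were higher and 2 lower in osteoclasts, where 40.9% of all genes were higher and 43.0% lower. The higher ones were Rac2 (1.91), Cybc1 (0.77) and Rap1a (0.37) and the lower ones Hvcn1 (-1.07) and Rac1 (-0.68), all as log2 differences. Within macrophages, where 36.8% of all genes were higher and 33.1% lower, LPS gave 3 calls of the 5, with Rac2 (0.60) and Rac1 (0.20) higher and Cybc1 lower. After rescaling to TPM 0 were higher and 4 lower, as 15.9% and 70.0% of all genes were, with Rac2 at -0.04 and Rac1 at -0.44. Cybc1, the chaperone that the core needs for its assembly, went from 9.51 to 4.99 FPKM (-0.81, SE 0.06, adjusted p 1.09e-07 in limma), lower under each scaling and at -1.51 under TPM. In osteoclasts, where 17.7% of all genes were called, Hvcn1 gave the 1 call among the 5, from 1.06 to 2.38 FPKM (0.70, SE 0.11, adjusted p 8.05e-04). The interaction was called for 4 of the 5 and for 56.6% of all genes, 26.6% above 0 and 30.0% under 0. Of the 4, 2 lay above 0 (Cybc1 at 0.74 and Hvcn1 at 0.45) and 2 under 0 (Rac2 at -0.55 and Rac1 at -0.21), but 4 calls lay above 0 and 0 under 0 after rescaling to TPM, where 63.3% and 13.9% of all genes did. Rac1, Cybc1, Hvcn1 and Nox1 share exon bases with genes on the opposite strand, so their values are uncertain. Of the catalytic subunits of other oxidases, Nox1 reached 0.803 FPKM in LPS-treated macrophages, Nox3 was listed at 0 in all libraries, and Nox4, Duox1 and Duox2 stayed at or under 0.0357 FPKM on average.

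Sod2 had the largest LPS difference of the 8 members in macrophages. Sod2 (ENSMUSG00000006818, chromosome 17, 13006846 to 13040063, plus strand) was at 7.55, 7.89 and 8.09 FPKM in untreated macrophages and 109, 99.7 and 106 FPKM after LPS. In osteoclasts it was at 20.9, 21.9 and 21.8 FPKM without LPS and 31.6, 27.6 and 30.1 FPKM with it. The 4 groups did not overlap, and the order of the cell types was reversed by LPS. LPS raised Sod2 13.4-fold in macrophages, from 7.84 ± 0.272 to 105 ± 4.87 FPKM (SD, n = 3), or 3.58 on the log2 scale (SE 0.05, adjusted p 1.21e-13 in limma). In osteoclasts it rose 1.38-fold, from 21.6 ± 0.571 to 29.8 ± 2.02 FPKM (SD, n = 3), or 0.45 on the log2 scale (SE 0.05, adjusted p 8.83e-05). Sod2 was 2.75-fold higher in osteoclasts without LPS (log2 difference 1.35, adjusted p 2.10e-10) and 3.53-fold lower with it (-1.79, adjusted p 1.24e-11). The interaction was -3.14 (SE 0.07, adjusted p 3.26e-11 in limma), and stayed called at -2.67 on the TPM scale and -2.77 with quantile-normalized values.

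Sod1, the cytosolic dismutase, varied least among the 8 on the deposited scale. Sod1 (ENSMUSG00000022982, chromosome 16, 90220754 to 90226329, plus strand) was at 38.9, 41.1 and 38.6 FPKM in untreated macrophages and 41.4, 43.3 and 43.5 FPKM after LPS. The osteoclast values were 48.2, 49.3 and 45.8 FPKM without LPS and 55.6, 49.0 and 48.7 FPKM with it, and these groups overlapped. The LPS difference was 0.11 in macrophages and 0.09 in osteoclasts on the log2 scale (SE 0.05 for each, adjusted p 0.0882 and 0.265 in limma). The first was called within the macrophage groups alone (adjusted p 0.0328) and without OC_LPS replicate 1 (adjusted p 0.0277), and it was -0.53 after rescaling to TPM. Sod1 was higher in osteoclasts by 0.27 without LPS (adjusted p 6.31e-04) as deposited, but by -0.15 after rescaling to TPM, and higher by 0.25 with LPS (adjusted p 8.58e-04).

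Ratios within a library do not depend on its scale. The log2 ratio of Sod2 to Sod1 was -2.33 ± 0.07 in untreated macrophages and 1.30 ± 0.10 after LPS (SD, n = 3), so that the mitochondrial enzyme's FPKM passed that of the cytosolic one. It was -1.15 ± 0.07 in untreated osteoclasts and -0.78 ± 0.07 after LPS (SD, n = 3), under 0 in all 6 libraries. The merged exons of Sod2 span 10008 bases and those of Sod1 3970, so the sign of this ratio rests on the gene models, while its differences between groups do not. The log2 ratio of Cybb to Cyba was -1.54 ± 0.04 and 0.47 ± 0.11 in macrophages without and with LPS, and -4.78 ± 0.24 and -3.44 ± 0.51 in osteoclasts (SD, n = 3). The log2 ratio of Ncf1 to Ncf4 was 1.00 ± 0.04 and 1.51 ± 0.05 in macrophages and -3.49 ± 0.16 and -2.60 ± 0.43 in osteoclasts (SD, n = 3). For each of the 3 ratios the groups of every comparison did not overlap, with an exact two-sided permutation p of 0.1, the smallest that 3 against 3 allows.

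**Figure D3:**
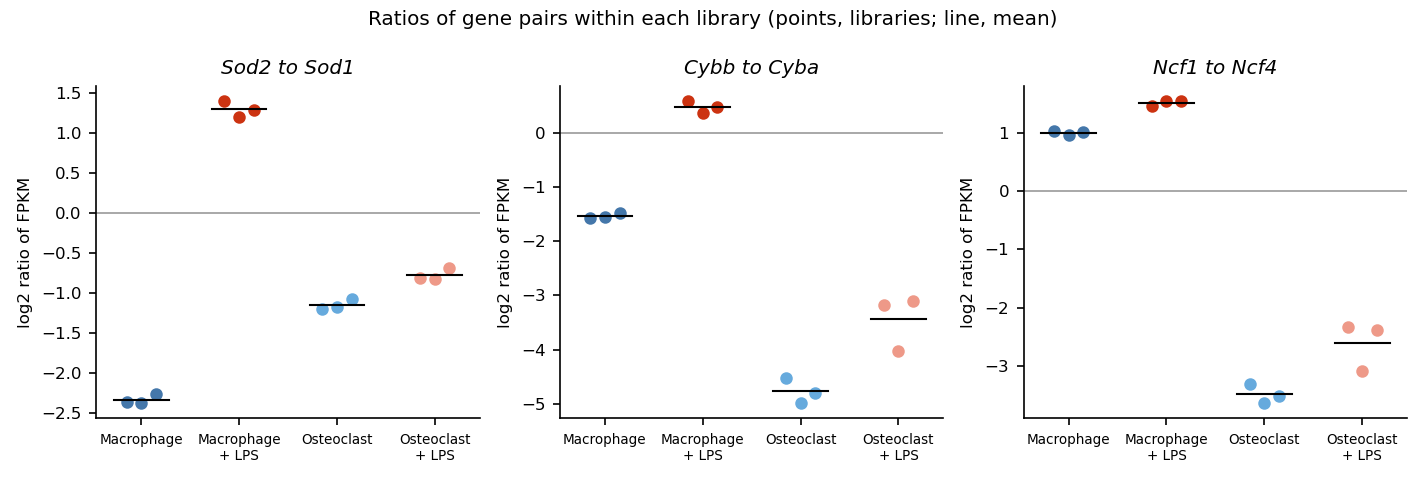
Log2 ratio of FPKM within each library (vertical axis) for Sod2 to Sod1, Cybb to Cyba and Ncf1 to Ncf4 in the 4 groups (horizontal axis), with points for libraries, short lines for means and the grey line at equal FPKM. Sod2 passes Sod1 in the LPS-treated macrophages (mean 1.30) and in no other group.

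Of the enzymes that remove peroxide, Cat was higher in macrophages than in osteoclasts. Cat (ENSMUSG00000027187, chromosome 2, 103453849 to 103485160, minus strand) was at 258, 259.7 and 254 FPKM in untreated macrophages and 311, 293 and 302 FPKM after LPS. The osteoclast libraries were at 88.8, 82.1 and 88.6 FPKM without LPS and 79.7, 75.5 and 77.4 FPKM with it. The 4 groups did not overlap. Cat was 2.97-fold lower in osteoclasts without LPS and 3.90-fold lower with it, log2 differences of -1.56 and -1.95 (SE 0.04 for each, adjusted p 5.51e-12 and 6.57e-13 in limma). Its LPS difference in macrophages was 0.23 (adjusted p 2.67e-04) as deposited and -0.42 after rescaling to TPM. In osteoclasts it fell by 0.16 (-0.16, SE 0.04, adjusted p 0.02), a call lost without OC_NT replicate 1 or 3 or OC_LPS replicate 2 (adjusted p 0.0781, 0.0867 and 0.0553) and with only the osteoclast groups fitted (0.0688).

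Gpx1 had the opposite order of cell types. Gpx1 (ENSMUSG00000063856, chromosome 9, 108338903 to 108340343, plus strand) was at 290.2, 289.6 and 284 FPKM in untreated macrophages and 344, 369.5 and 355 FPKM after LPS. Its levels in osteoclasts were 475, 475 and 469.6 FPKM without LPS and 509.6, 479 and 438 FPKM with it. The osteoclast groups overlapped each other and lay above both macrophage groups. Gpx1 was higher in osteoclasts by 0.71 without LPS and 0.41 with it on the log2 scale (SE 0.05 for each, adjusted p 5.64e-08 and 8.03e-06 in limma), and by 0.30 and 0.57 on the TPM scale and 0.36 and 0.78 with quantile-normalized values. The LPS difference in macrophages was 0.30 (adjusted p 1.78e-04) as deposited and -0.34 after rescaling to TPM, and in osteoclasts it was 0.00 (adjusted p 0.964).

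Counted over the 8 members, LPS in macrophages gave 7 calls, all higher, where 69.9% of all genes tested were called and 36.8% were higher. The median of the members was 0.48 and that of all genes 0.02. On the TPM scale, where the median of all genes was -0.55, the members split into 3 higher and 4 lower, and 15.9% of all genes were higher and 70.0% lower. Cybb, Ncf1 and Sod2 were the 3 that stayed higher. In osteoclasts LPS gave 4 calls, Cybb, Ncf1 and Sod2 higher and Cat lower, where 17.7% of all genes were called, 11.1% higher and 6.59% lower. The split was 3 and 1 under TPM as well, where 8.29% of all genes were higher and 10.8% lower. The groups of the LPS comparison did not overlap for 8 members in macrophages, against 74.0% of all genes, and for 5 in osteoclasts, against 34.0%.

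Between the cell types all 8 members were called, without LPS (5 higher and 3 lower in osteoclasts) and with it (4 and 4). This lies near the background, since 77.8% of all genes were called without LPS and 83.9% with it, the latter 40.9% higher and 43.0% lower. Without LPS 38.8% of all genes were higher and 39.0% lower, and under TPM, with 4 members on each side, 24.3% and 57.0%. The groups did not overlap for any member in either comparison, against 81.4% and 83.6% of all genes. Cyba, Ncf4, Sod1 and Gpx1 were higher in osteoclasts in both comparisons and Cybb, Ncf1 and Cat lower in both, with Sod1 changing side under TPM without LPS. As deposited, Sod2 was the 1 member that changed side between them. The interaction was called for 6 members, all under 0, where 56.6% of all genes were called, 26.6% above and 30.0% under 0. Beside Cybb and Sod2 these were Ncf4 (-0.42), Cat (-0.39), Cyba (-0.34) and Gpx1 (-0.30), and under TPM, where the median of all genes was 0.51 and 63.3% were called above and 13.9% under 0, these 4 lay above 0, at 0.15, 0.19, 0.23 and 0.28.

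**Figure D4:**
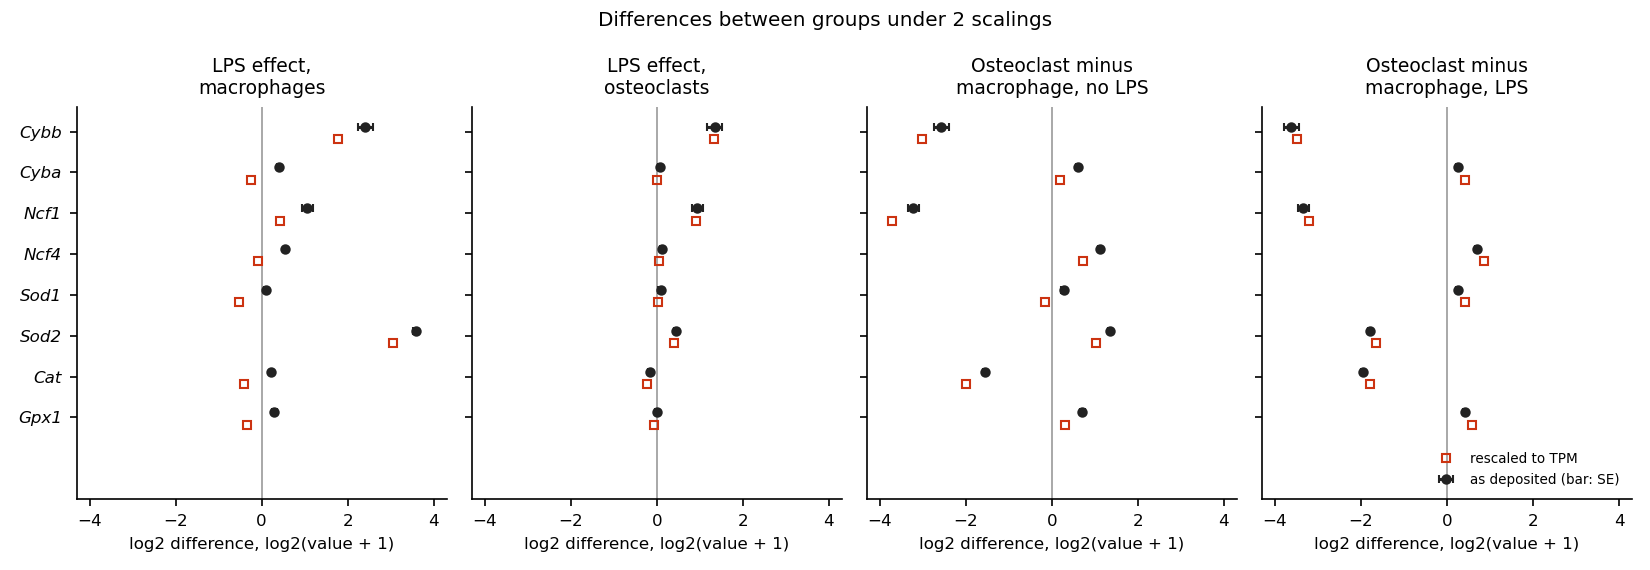
Log2 difference (horizontal axis, log2 of value + 1) of each of the 8 genes (vertical axis) in 4 comparisons, with filled points for the deposited scale (bar, SE) and open squares after rescaling to TPM. In macrophages, Cyba, Ncf4, Sod1, Cat and Gpx1 lie above 0 as deposited and under 0 after rescaling, while Cybb, Ncf1 and Sod2 stay above 0 under these 2 scalings.

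The wider peroxide and superoxide disposal list held 28 genes, of which 23 were tested. With LPS in macrophages 12 were higher and 4 lower, with a median of 0.23, against 36.8% higher and 33.1% lower of all genes tested and their median of 0.02. Under TPM 4 were higher and 14 lower, where 15.9% and 70.0% of all genes were. The largest rises were in Prdx5, a peroxiredoxin, from 91.3 to 236 FPKM (log2 difference 1.36), in Txnrd1, the cytosolic thioredoxin reductase, from 83.6 to 212 FPKM (1.33), and in its substrate thioredoxin, Txn1, from 175 to 384 FPKM (1.13). Under TPM these rises were 0.72, 0.69 and 0.49, and with quantile-normalized values 0.51, 0.52 and 0.29. The lowest was Gclc, the catalytic subunit of the enzyme that starts glutathione synthesis, from 40.6 to 12.6 FPKM (-1.62, SE 0.05, adjusted p 3.73e-11 in limma). Its modifier subunit Gclm went from 73.6 to 49.4 FPKM (-0.57) and the glutaredoxin Glrx2 from 2.00 to 1.30 FPKM (-0.39), differences of -1.22 and -1.06 under TPM.

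In osteoclasts 5 of the 23 were called with LPS, where 17.7% of all genes were called (11.1% higher, 6.59% lower), each also called in that direction in macrophages: Prdx5 (0.55), Txn1 (0.24) and Txnrd1 (0.24) higher and Gclm (-0.44) and Gclc (-0.29) lower. The interaction was called for 12 of the 23, 3 above 0 and 9 under 0, but 13 above 0 and 3 under 0 after rescaling to TPM. Over all genes 26.6% were called above 0 and 30.0% under 0, and under TPM 63.3% and 13.9%. Gclc had the highest interaction of the list at 1.32 (adjusted p 1.65e-08) and Txnrd1 the lowest at -1.09 (adjusted p 8.07e-09 in limma), or -0.52 under TPM.

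Without LPS, 12 of the 23 disposal genes were higher and 9 lower in osteoclasts, and 9 and 13 after rescaling to TPM. Of all genes 38.8% were higher and 39.0% lower, and under TPM 24.3% and 57.0%. The highest were Gss, glutathione synthetase, at 2.22 against 12.1 FPKM (2.02), Prdx3, the mitochondrial peroxiredoxin, at 33.0 against 131 FPKM (1.95), and Glrx5, a mitochondrial glutaredoxin, at 8.36 against 29.7 FPKM (1.71). The lowest were the cytosolic glutaredoxin Glrx, at 18 against 2.92 FPKM (-2.27), Prdx5 at 91.3 against 25.4 FPKM (-1.81) and Gclc at 40.6 against 11.3 FPKM (-1.75). With LPS, 10 were higher and 12 lower, against 40.9% and 43.0% of all genes, led by Glrx5 (1.98), Prdx3 (1.89) and the mitochondrial thioredoxin Txn2 (1.68) above and by Glrx (-2.66), Prdx5 (-2.61) and Prdx4 (-1.70), the peroxiredoxin of the endoplasmic reticulum, below. Prdx5, Gclm and Gss share exon bases with genes on the opposite strand, and Gclm also with 1 on its own, so their values are uncertain.

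**Figure D5:**
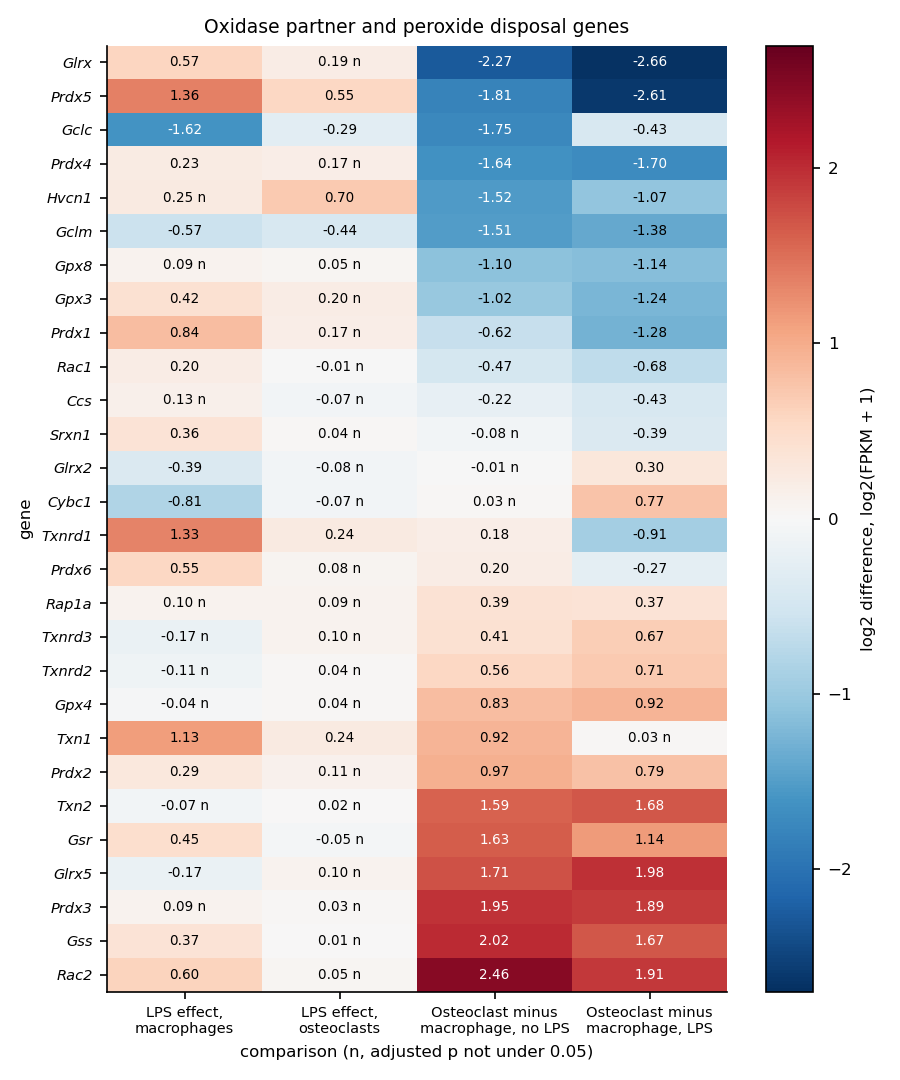
Log2 difference (colour and printed value, log2 of FPKM + 1, as deposited) of the 5 oxidase partner and 23 disposal genes tested (rows) in 4 comparisons (columns), where n marks an adjusted p not under 0.05. Rows are ordered by the untreated osteoclast difference, from Glrx (-2.27) at the top to Rac2 (2.46) at the bottom, and under TPM the split of the disposal genes in the first column turns from 12 higher and 4 lower to 4 and 14.

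The genes with the pattern most like each member were found by the root mean square difference of centred log2 profiles over the 12 libraries. For Cybb these were Dhx58 (0.150) and Sp110 (0.191), where the median gene was at 1.85. Dhx58 was at 9.97 and 58.2 FPKM in macrophages without and with LPS and at 0.745 and 4.04 FPKM in osteoclasts. For Ncf1 they were Tmem176b (0.181) and Fyb (0.207), and for Sod2 Ppm1k (0.149) and Lcp2 (0.160), which went from 20.3 to 206 FPKM with LPS in macrophages. For Cat they were Cyth1 (0.074) and Rnf130 (0.082), for Ncf4 Traf6 (0.059) and Tomm70a (0.068), and for Cyba Cct2 (0.041) and Copb2 (0.053). For Gpx1 they were Eif3h (0.043) and Ufm1 (0.044), and for Sod1 Fkbp1a (0.038) and Rpsa (0.043). Of these, Dhx58, Sp110, Tmem176b, Fyb, Lcp2, Tomm70a and Rpsa share exon bases with other genes.

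Within the set, Cyba and Gpx1 had the most alike profiles, at 0.09, followed by Cyba and Sod1 at 0.14. Cybb and Ncf1 were 0.51 apart, and Ncf1 was 1.90 from Cyba. The member nearest to Sod2 was Cyba, at 1.18.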

How the data were processed

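RNA of 12 samples was sequenced after library preparation with the NEBNext Ultra RNA kit, per the labels' protocols. The authors deposited FPKM values for 54532 Ensembl mouse genes. The submitters' processing notes name fastp, STAR, featureCounts, DESeq2 and build mm10. Versions, annotation and strand setting are not given in the sources used here. FPKM columns summed to between 255852 and 408994. Values of 25015 of the 25854 genes above 0 (96.8%) were whole reads, within a tolerance of 0.02, once multiplied by the merged exon length of GENCODE release M21 on GRCm38 and by 1 denominator per library. These denominators were 0.842 to 1.33 times the recovered reads, lowest in MA_LPS and highest in MA_NT, and the median log2 difference of all genes was at most 0.02 from 0 in each contrast. Changes are therefore set against the typical gene, and rescaling to TPM (a fixed sum per library) shows what that choice does.

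Tested were genes that reached 1 FPKM in 3 or more libraries. Version 3.58.1 of limma (R 4.3.3) fitted log2(FPKM + 1) and moderated the variances along a trend in mean level, on a scale that understates changes of low genes. The fit had 4 group means over 12 libraries and 5 contrasts, the last being the interaction, the osteoclast LPS effect less the macrophage one. All were two-sided, with Benjamini-Hochberg adjustment over the 11335 genes and a threshold of 0.05. The steps were tested on simulated data. Other settings were 0.1 as pseudocount, all genes unfiltered, a minimum mean of 5 FPKM, TPM, quantile normalization, only the groups compared, a replicate block, no variance trend, voom on recovered reads and each library left out. Named were all 8 members, the 3 highest and 3 lowest called genes per contrast of each list whose mean reached 1 FPKM, and the 2 genes nearest to each member. Genes named outside this rule, which are the untested oxidases, Gtf2ird2 and the markers Adgre1, Lyz2, Mrc1, Csf1r, Cd68, S100a8, S100a9 and Ngp, were chosen after their values were seen. A gene of the partner list is left out of its counts and not reported here. The members and lists were chosen with earlier results of these data known. Promoters are from RefSeq, GRCm38.p6, and gene positions from GENCODE M21.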

Additional observations from a re-analysis of the deposited data

Results flagged for a closer look

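By limma's interaction test, 6 of the 8 genes responded to LPS to a different extent in osteoclasts than in macrophages, as did 56.6% of all genes tested, 30.0% with a value under 0. The osteoclast LPS effect less the macrophage one was -3.14 for Sod2, -1.06 for Cybb, -0.42 for Ncf4, -0.39 for Cat, -0.34 for Cyba and -0.30 for Gpx1 on the log2 scale. Sod2 kept its call under TPM and quantile scaling, Cybb kept its direction and not its call, and the other 4 changed direction under both. In Cat the LPS effects themselves had opposite signs as deposited, 0.23 and -0.16, with 3 libraries in each group. Groups of 3 were not tested for outlying samples.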

How the results depend on the processing

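Of 360 combinations of 40 member results with 9 settings that kept all libraries, 331 neither crossed the threshold nor turned the sign of a difference called under either setting. In 5 the call was lost and in 1 it was gained with the sign kept, and 23 turned sign, 12 under TPM and 11 under quantile normalization. Among the 23, Ncf4 under TPM also lost its calls for LPS in macrophages and the interaction (adjusted p 0.087 and 0.0631). Sod1 with LPS in macrophages and the interactions of Ncf1 and Sod1, not called as deposited, were called under both scalings. The 331 include sign turns of differences called under neither setting, such as Cyba with LPS in osteoclasts, at 0.07 as deposited and -0.05 under quantile normalization. Given as TPM and then quantile, the LPS differences in macrophages that reversed were Cyba -0.24 and -0.41, Ncf4 -0.09 and -0.13, Sod1 -0.53 and -0.49, Cat -0.42 and -0.55 and Gpx1 -0.34 and -0.51. The interactions that reversed were Cyba 0.23 and 0.37, Ncf1 0.50 and 0.69, Ncf4 0.15 and 0.16, Sod1 0.56 and 0.50, Cat 0.19 and 0.29 and Gpx1 0.28 and 0.42. Sod1 without LPS reversed to -0.15 under TPM and was 0.03 under quantile normalization. These scalings moved the median of all genes by their construction. With a minimum mean of 5 FPKM, which left fewer genes to test, 4851 (LPS in macrophages), 5427 and 5694 (cell types without and with LPS) and 4018 (interaction) genes were called, and 0 partner genes for LPS in osteoclasts. With only the groups compared in the fit, 5 partner genes were called for LPS in macrophages, against 3. Leaving out 1 library at a time gave 7 to 8, 3 to 5, 8 to 8, 8 to 8 and 6 to 6 members called in the 5 contrasts and reversed no called result.

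The replicate numbers were not shown to pair the samples: the correlation of same-numbered libraries ran from -0.0702 to 0.104 over 18 pairs, 1 of them over 0.1, and 5 of 12 libraries correlated best with their own number. With the replicate block, 7914, 1930, 8787, 9512 and 6422 genes were called, against 7921, 2008, 8822, 9509 and 6413. The block changed no member's call. With 3 libraries a group, differences within the spread of replicates, such as those of Sod1 and Gpx1 in osteoclasts, were not detectable.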
